A study of Mus musculus with 4 samples.

Results

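Polycomb repressive complex 2 (PRC2) is built around 6 core genes of the mouse, *Ezh2*, *Ezh1*, *Eed*, *Suz12*, *Rbbp4* and *Rbbp7*. These 6 of 55335 gene IDs were picked by symbol in the gene tables of the series, and each had 1 matching ID. RNA was measured in 4 Smart-Seq2 libraries of oocytes from C57BL/6 mice, 2 labelled control and 2 labelled mutant, whose descriptions carry the prefix MII. The series concerns mice in which a base change at an alternatively used splice site of *Ezh2* exon 3 gives the alleles Ezh2Long and Ezh2Short. The label mutant names neither allele, and the sources used here do not state zygosity, age, the number of oocytes or the animals behind a library. The p-values therefore measure the spread between these libraries, which may be technical.

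PRC2 places methyl groups on H3K27, a mark of silenced genes. EZH2 and its paralog EZH1 carry the methyltransferase domain, and neither is active without EED and SUZ12. EED binds the finished mark and stimulates the enzyme, SUZ12 is the scaffold, and RBBP4 or RBBP7 bind histones and also serve in deacetylase, remodelling and chromatin assembly complexes. In growing mouse oocytes PRC2 lays down maternal H3K27 methylation that is passed to the embryo.

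The exon whose splice site the series concerns is shown first. In GENCODE release M21 (build mm10) exon 3 of *Ezh2* ends at either of 2 sites on the minus strand of chromosome 6. The long form spans chr6:47576536-47576664 and has 129 bases, and the short form spans chr6:47576563-47576664 and has 102 bases. Capitals mark the 27 bases that only the long form keeps, a number divisible by 3.
Ezh2 exon 3, long form: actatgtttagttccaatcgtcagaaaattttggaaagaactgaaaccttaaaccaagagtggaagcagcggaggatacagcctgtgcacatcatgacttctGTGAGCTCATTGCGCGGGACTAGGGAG
Ezh2 exon 3, short form: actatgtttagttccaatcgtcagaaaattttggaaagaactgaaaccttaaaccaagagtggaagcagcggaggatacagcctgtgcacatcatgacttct
Of 15 annotated *Ezh2* transcripts 5 have the long exon, 2 have the short exon and 8 lack it. The deposited tables sum over these transcripts, so the share of each form was not measured.

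Library depth was even, with 25090032 to 26617816 matrix counts each. Genes with a count numbered 20053 and 19948 in controls 1 and 2, and 21760 and 21485 in mutants 1 and 2. All 14 listed oocyte markers had counts in all 4 libraries, with summed levels between 19414 and 22432 CPM (counts divided by the scaled library size). Markers of other cells were uneven. The 21 cumulus and granulosa markers summed to 483 CPM in mutant 1 and to between 48.2 and 83.0 CPM elsewhere. Of them 1 gene was at 0 in mutant 1 and 5 to 10 were at 0 elsewhere. *Cyp19a1* among them was instead lowest in mutant 1, at 16.4 CPM, with 23.6 CPM in mutant 2 and 34.2 and 42.5 CPM in controls 1 and 2. The 18 leukocyte markers summed to 220 CPM in mutant 2 and to between 10.6 and 21.3 CPM elsewhere, with 1 gene at 0 in mutant 2 and 7 to 12 at 0 elsewhere. *Ptprc*, which defines leukocytes, was at 0 in both controls, 0.107 CPM in mutant 1 and 43.2 CPM in mutant 2. Not all of the list followed it. *Cd4* was at 0.685 and 1.11 CPM in controls 1 and 2 and at 0.320 and 0.488 CPM in mutants 1 and 2. *Csf1r* was highest in mutant 1, at 8.81 CPM, with 5.97 CPM in mutant 2. The 11 stroma and endothelium markers summed to between 29.96 and 42.9 CPM. The part of these cells in the results was not tested. The fold changes of the 6 members were also computed with each library left out.

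Scaled for length, the core transcripts differed widely in level. *Rbbp7* was by far the most abundant, at 5817 and 5295 TPM (length-scaled transcript abundance, deposited by the authors) in controls 1 and 2 and at 4488 and 6485 TPM in mutants 1 and 2. It ranked between 18th and 27th of all genes in the 4 libraries. *Eed* and *Suz12* followed, with ranges of 394 to 540 and of 308 to 482 TPM that overlapped. *Ezh2* lay below them at 122 to 179 TPM. *Ezh1* came next at 14.7 to 22.6 TPM, and *Rbbp4* was lowest at 5.94 to 8.62 TPM, ranked between 6065th and 7019th. Apart from *Eed* and *Suz12*, no neighbours in this order had overlapping ranges over the 4 libraries.

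**Figure D1:**
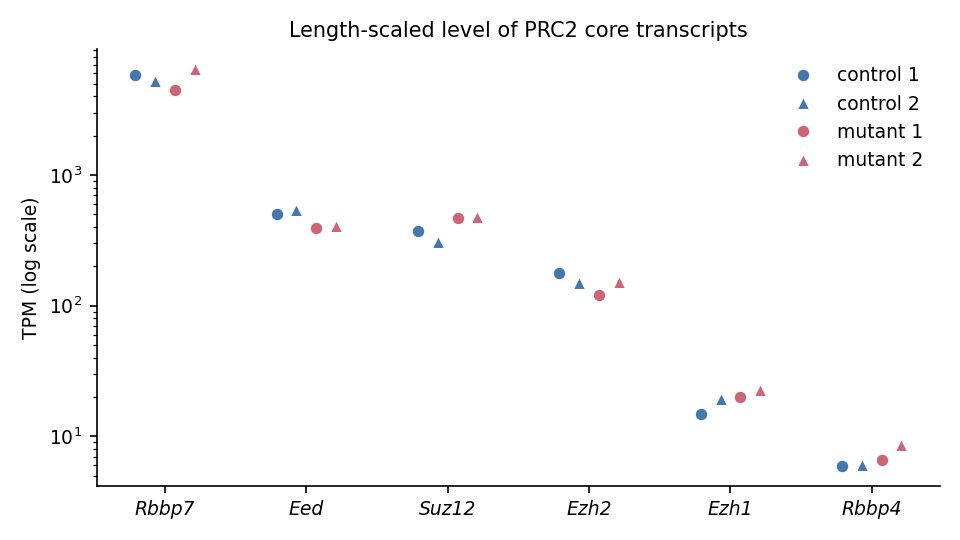
Deposited TPM (log scale) of the 6 core genes, 1 point per library, ordered by their mean. *Rbbp7* lies near 5521 TPM and *Rbbp4* near 6.81 TPM, and only the ranges of *Eed* and *Suz12* overlap between neighbours.

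In each pair of paralogs 1 gene supplied most of the RNA. *Ezh2* made up 92.4% and 88.6% of the summed TPM of *Ezh2* and *Ezh1* in controls 1 and 2, against 85.8% and 87.0% in mutants 1 and 2. *Rbbp7* made up between 99.85% and 99.90% of the sum with *Rbbp4*. The *Rbbp7* and *Rbbp4* transcripts matched at 79.1% of 1217 aligned bases, and their longest identical run had 20 bases, printed here because reads shared between such unequal paralogs would weigh on the rare one.
Rbbp7 and Rbbp4, longest identical run: aaccatgaaggagaagtgaa
The longest run that *Ezh2* shares with *Ezh1* had 17 bases. A processed pseudogene of *Rbbp7*, Gm6382, matched it at 97.1% of 942 bases and held 7 to 17 counts per library. *Txlng*, on the opposite strand, shares 174 bases with *Rbbp7* and held 11371 to 13036 counts. Also on the opposite strand, Gm26722 shares 799 bases with *Rbbp4* and Gm26563 shares 180 bases with *Suz12*. No counts were available for Gm26722 and Gm26563. Processed pseudogenes also matched *Rbbp4* (Gm4800 at 90.9% of 1280 bases, Gm48609 and Gm15709) and *Suz12* (Gm14752 at 88.6% of 985 bases). Each of these pseudogenes had 0 counts in every library. *Sync*, which shares 521 bases with *Rbbp4* on the opposite strand, had 0 counts as well. The sources used here do not state whether reads were counted by strand.

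Setting mutant against control oocytes asks whether the mutant label went with a change in the RNA of the complex. None of the 6 core genes passed the test over all genes (quasi-likelihood test of edgeR, p adjusted by Benjamini-Hochberg, threshold 0.05), where 3.75% of 15493 tested genes passed. DESeq2 and limma passed 0 of the 6 as well, beside 1993 and 738 of the 15493 tested genes. At an unadjusted p under 0.05 edgeR passed 1 of the 6, *Eed*, against 23.0% of all tested genes. All 6 passed the filter on low counts. The log2 fold changes were positive for 3 members and negative for 3, with a median of -0.02 beside 0.05 over all tested genes. Control and mutant libraries did not overlap in CPM for 4 of the 6 members, a share read against 54.6% of all tested genes. The mutants were higher for 2 of these members, against 28.8% of tested genes, and lower for 2, against 25.7%. In TPM the groups did not overlap for 4 of the 6, against 49.5%. In such bulk libraries fewer cells of a type and less RNA per cell cannot be told apart.

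**Figure D2:**
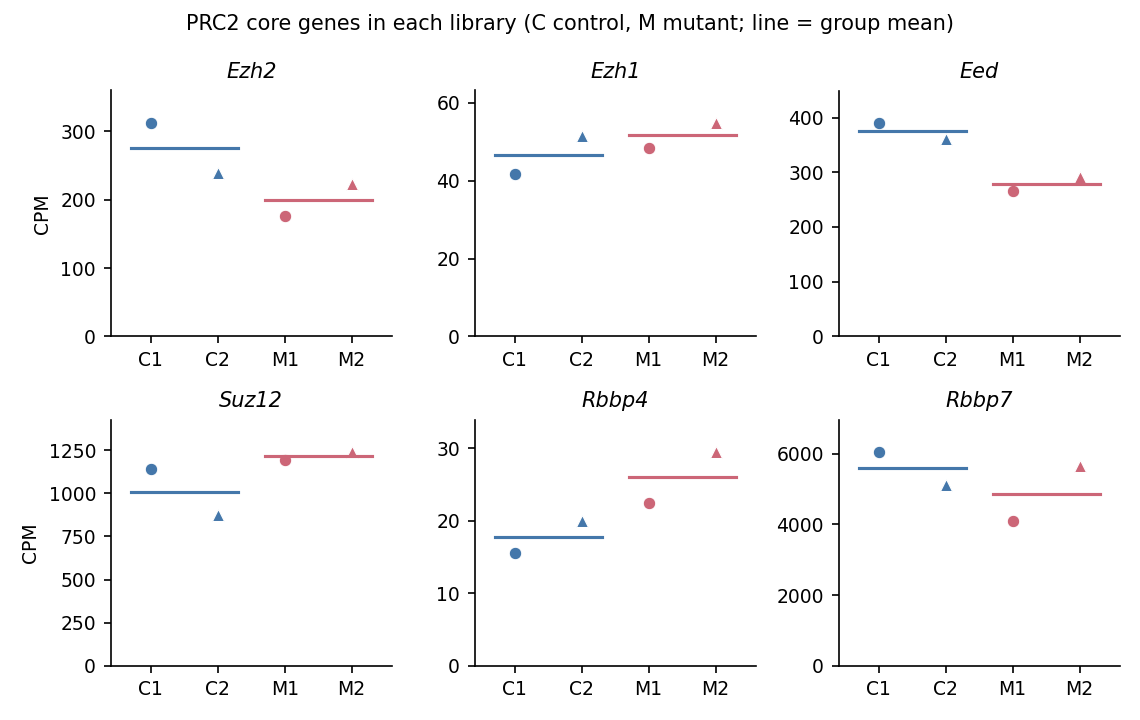
CPM of each core gene in the 4 libraries (C1 and C2 control, M1 and M2 mutant), with a line at each group mean and each axis starting at 0. *Ezh2* and *Eed* have both mutants below both controls, *Suz12* and *Rbbp4* have both above, and *Ezh1* and *Rbbp7* overlap.

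The catalytic pair is given first, since the series concerns *Ezh2*. *Ezh2* (chromosome 6, 47530139 to 47595341, mm10) had 7762 counts in control 1, 6028 in control 2, 4955 in mutant 1 and 5938 in mutant 2. That is 313 and 239 CPM in controls against 176 and 223 CPM in mutants, so both mutants were lower, although mutant 2 was closer to control 2 than to mutant 1. Its log2 fold change was -0.47 (SE 0.195, 95% interval -0.94 to 0.0018, edgeR adjusted p = 0.219), which allows a mutant level from 0.522 to 1.001 of the control level. The value was -0.27 without control 1 and -0.69 without control 2. In TPM the groups overlapped, with 179 and 149.7 in controls and 122 and 151.4 in mutants.

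*Ezh1* (chromosome 11, 101191115 to 101226463), the paralog best known from non-dividing cells, was counted 1038 and 1295 times in controls and 1364 and 1462 times in mutants. At 41.8 and 51.4 CPM against 48.4 and 54.9 CPM the groups overlapped (log2 fold change 0.15, SE 0.186, 95% interval -0.30 to 0.60, edgeR adjusted p = 0.688). Without control 1 the log2 fold change was -0.0014. In TPM both mutants, at 20.2 and 22.6, were above both controls, at 14.7 and 19.3.

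Relative to *Ezh1*, *Ezh2* RNA was 12.2 and 7.74 times as abundant in controls 1 and 2 and 6.04 and 6.70 times as abundant in mutants 1 and 2, per TPM. Both mutants thus had the smaller excess of *Ezh2*. The log2 ratio of *Ezh1* to *Ezh2* was higher in mutants by 0.61 (exact permutation p = 0.333, two-sided, n = 2 each). That is the smallest p that 6 regroupings of 4 libraries allow, so no ratio could pass. The size of this difference moved with the choice of control, to 0.28 without control 1 and to 0.94 without control 2.

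*Eed* and *Suz12* pointed in opposite directions. *Eed* (chromosome 7, 89954654 to 89980983) gave 9703 and 9075 counts for the controls, 7465 and 7741 for the mutants, or 391 and 360 CPM against 265 and 291 CPM. Both mutants were below both controls, and the members of each group lay close together. Its log2 fold change of -0.43 (SE 0.143, 95% interval -0.78 to -0.092) had an unadjusted p of 0.0205 and an edgeR adjusted p of 0.137, and DESeq2 gave an adjusted p of 0.0505. With a library left out the value stayed between -0.54 and -0.38. An antisense gene, E230029C05Rik, shares 261 bases with *Eed* and held 9 to 30 counts.

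*Suz12* (chromosome 11, 79993106 to 80034123) gave 28288 and 22002 control counts beside 33689 and 33054 mutant counts, or 1139 and 873 CPM against 1196 and 1242 CPM. The mutants were higher, but control 1 was closer to them than to control 2. The log2 fold change was 0.28 (SE 0.180, 95% interval -0.15 to 0.71, edgeR adjusted p = 0.411), and it was 0.049 without control 2 and 0.47 without control 1.

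Their order by level switched between the groups in TPM only. In counts and CPM *Suz12* was above *Eed* in every library. *Eed* stood at 499.9 and 539.6 TPM and *Suz12* at 372 and 308 TPM in the controls, a ratio of 1.35 and 1.75. In the mutants *Eed* stood at 394 and 409 TPM and *Suz12* at 471 and 482 TPM, a ratio of 0.837 and 0.849. Per TPM *Eed* was the more abundant of the pair in both controls and the less abundant in both mutants. The log2 ratio differed by -0.86 (mutant minus control, exact permutation p = 0.333, two-sided, n = 2 each, the smallest possible). This pair was chosen after its values were seen. With a library left out the difference was -1.05 to -0.67, and on matrix counts it was -0.72. The mean transcript length of *Eed*, given below, enters its TPM.

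Other pairs that involve *Suz12* or *Ezh2* are given as values. *Ezh2* was at 0.482 and 0.486 of the *Suz12* level in the controls and at 0.258 and 0.314 in the mutants, in TPM. The 2 controls were nearly equal here, and both mutants were lower. *Ezh2* and *Eed* kept no such difference, with *Ezh2* at 0.358 and 0.277 of *Eed* in controls and at 0.309 and 0.370 in mutants. Of all 15 pairs 9 had ratios that did not overlap between the groups, beside 52.1% of all pairs among the 12798 tested genes with TPM above 0 in every library. Each of the 9 had a permutation p of 0.333 and 0.556 adjusted over the 15 pairs (exact test). The pairs share genes and are not independent.

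**Figure D3:**
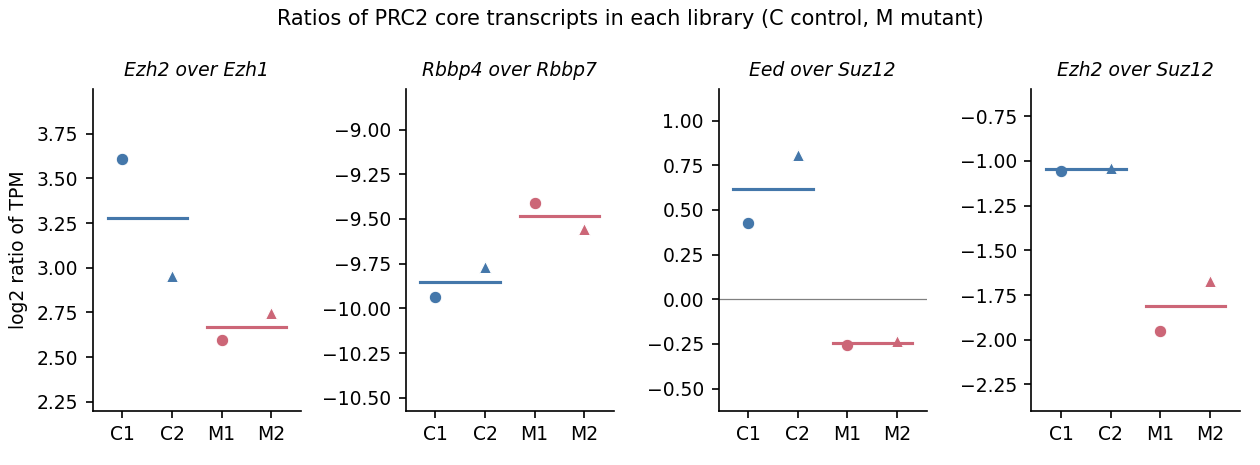
The log2 ratio of TPM for 4 of the 15 pairs of core genes in each library, those with *Suz12* picked after their values were seen (C1 and C2 control, M1 and M2 mutant), with a line at each group mean and the same span of log2 units in all panels. *Eed* over *Suz12* is above 0 in both controls and below 0 in both mutants, and no pair shown overlaps between the groups.

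The histone-binding pair differed widely in level. *Rbbp7* (chromosome X, 162760402 to 162779092) gave 150333 and 129185 control counts beside 115357 and 150290 mutant counts, or 6054 and 5127 CPM against 4096 and 5645 CPM. Mutant 2 lay between the controls and mutant 1 was lowest (log2 fold change -0.20, SE 0.220, 95% interval -0.73 to 0.33, edgeR adjusted p = 0.647). Without mutant 1 the value was -0.0049 and without mutant 2 it was -0.46.

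*Rbbp4* (chromosome 4, 129307100 to 129335370) gave only 385 and 504 control counts beside 633 and 786 mutant counts, or 15.5 and 20.0 CPM against 22.5 and 29.5 CPM. Both mutants were above both controls, with mutant 1 close to control 2. Its log2 fold change was 0.55 (SE 0.248, 95% interval -0.045 to 1.145, edgeR adjusted p = 0.247). The value was 0.33 without mutant 2, 0.37 without control 1, 0.70 without control 2 and 0.72 without mutant 1. The matrix held 1.29 to 1.496 times the RSEM expected counts for *Rbbp4*, against at most 1.05 times for the other members. From the rounded RSEM counts the log2 fold change came to 0.42 (edgeR adjusted p = 0.441). *Rbbp7* was 979 and 874 times as abundant as *Rbbp4* in the controls and 680 and 752 times in the mutants, in TPM. The log2 ratio of *Rbbp4* to *Rbbp7* was higher in mutants by 0.37 (exact permutation p = 0.333, two-sided, n = 2 each) and, on matrix counts, by 0.76.

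**Figure D4:**
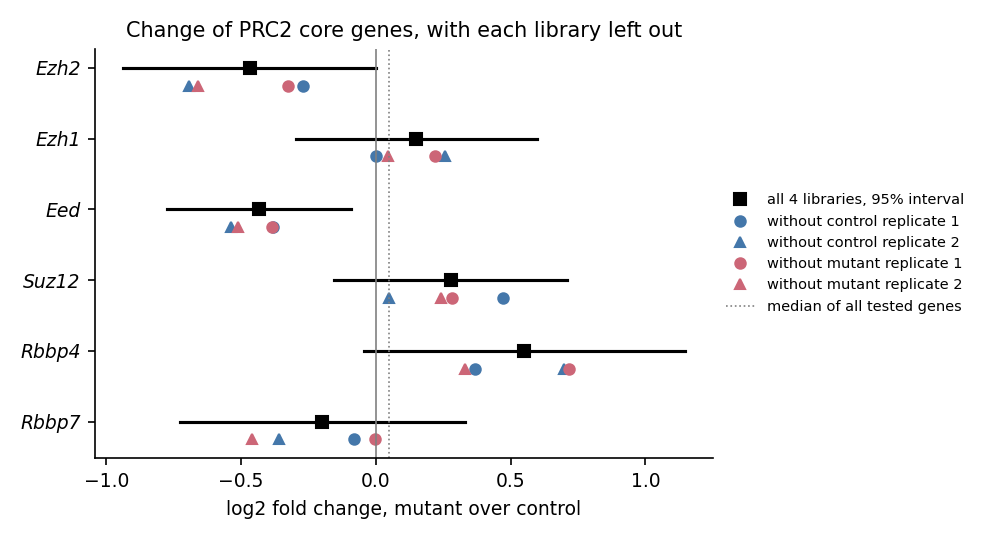
Log2 fold change (mutant over control) of each core gene from all 4 libraries with its 95% interval (squares and bars), and with each library left out (coloured points). Only the interval of *Eed* lies wholly on one side of 0, and leaving out a control moves *Ezh2* between -0.69 and -0.27.

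The gene length in the RSEM tables is averaged over transcripts by their estimated share, so it moves with the isoforms assigned. For *Ezh2* it was 2591.38 and 2590.94 bases in the controls and 2578.99 and 2599.33 bases in the mutants. The mutants lay on either side of the controls, with a mean difference of -2 bases (exact permutation p = 1, two-sided, n = 2 each). The 15 annotated transcripts run from 483 to 2787 bases, so this mean length cannot give the share of the 27-base difference. For *Eed* the mean length was 1334 and 1263 bases in controls and 1373 and 1418 bases in mutants, without overlap. It was the 1 member of 6 whose lengths did not overlap, beside 25.9% of all tested genes. For *Rbbp4* it was 3072 bases in control 1 and between 4074 and 4315 bases in the other libraries, which enters its TPM but not its counts.

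Genes whose profile over the 4 libraries was most like that of a member were found among 5925 tested genes whose mean reached 10 CPM, leaving out provisional symbols of the Gm and Rik kind. The measure was the root mean square distance of log2 CPM centred on each gene's mean. The nearest to *Ezh2* was *Sclt1* at a distance of 0.0246, followed by *Efnb2* and *Nae1*. The nearest to *Eed* was *Cep78* at 0.00970 and the nearest to *Suz12* was *Pnp* at 0.00965. *Mtbp* lay at 0.00692 from *Rbbp7*, *Pi4ka* at 0.0188 from *Rbbp4* and *Cers6* at 0.0167 from *Ezh1*. No member was among the 3 nearest genes of another member. With only 3 places among 5925 genes such an outcome was likely beforehand, so nothing is drawn from it. The likeness rests on 4 libraries and is a description.

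The partners of the core were compared in the same fit. Of 9 accessory subunits of PRC2 8 were tested, of which 1 fell and 0 rose, with a median log2 fold change of 0.27. The member that fell was *Aebp2*, which stimulates the enzyme, at 202 and 158 CPM in the control libraries against 97.3 CPM in both mutants (log2 fold change -0.89, SE 0.168, edgeR adjusted p = 0.0458). This call was lost without control 1 (adjusted p = 0.302), control 2 (0.191) or mutant 2 (0.0740), and under 3 other scalings (0.0530 to 0.0574). *Ezhip*, the oocyte inhibitor of PRC2, listed under its older symbol AU022751, had 605 and 782 CPM in controls 1 and 2, 1469 and 1189 CPM in mutants 1 and 2, and did not pass (log2 fold change 0.94, edgeR adjusted p = 0.0567). It was singled out after its values were seen.

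Polycomb repressive complex 1, in some of its forms, binds the mark that PRC2 makes. Of 23 listed genes 18 were tested, 1 rose and 0 fell, with a median log2 fold change of -0.0010. *Pcgf3*, a RING-finger partner of its ubiquitin ligase, rose from 28.5 and 30.4 CPM in controls to 58.7 and 66.1 CPM in mutants (log2 fold change 1.08, SE 0.172, edgeR adjusted p = 0.0310). It did not pass without control 1 (adjusted p = 0.284), control 2 (0.275) or mutant 2 (0.0554). Of 3 H3K27 demethylase genes 2 were tested and 0 passed. *Kdm6a* was at 317 and 293 CPM in controls and 329 and 356 CPM in mutants (edgeR adjusted p = 0.533), and *Kdm6b* at 59.2 and 75.4 CPM against 57.2 and 50.5 CPM (adjusted p = 0.356).

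The NuRD, SIN3, NURF, CAF-1, HAT1 and MuvB complexes also hold RBBP4, RBBP7 or both. All 29 listed partner genes were tested, and 1 fell and 0 rose, with a median log2 fold change of 0.079. That gene was *Sap18*, a SIN3-associated protein, at 259 and 247 CPM in the control libraries against 153 and 135 CPM in the mutant ones (log2 fold change -0.81, SE 0.145, edgeR adjusted p = 0.0399). The call was lost without control 1 (adjusted p = 0.296), control 2 (0.268) or mutant 2 (0.0845), and with library totals alone (0.0585). Across all tested genes 1.77% rose and 1.98% fell, beside which these counts of 0 or 1 per list are read.

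**Figure D5:**
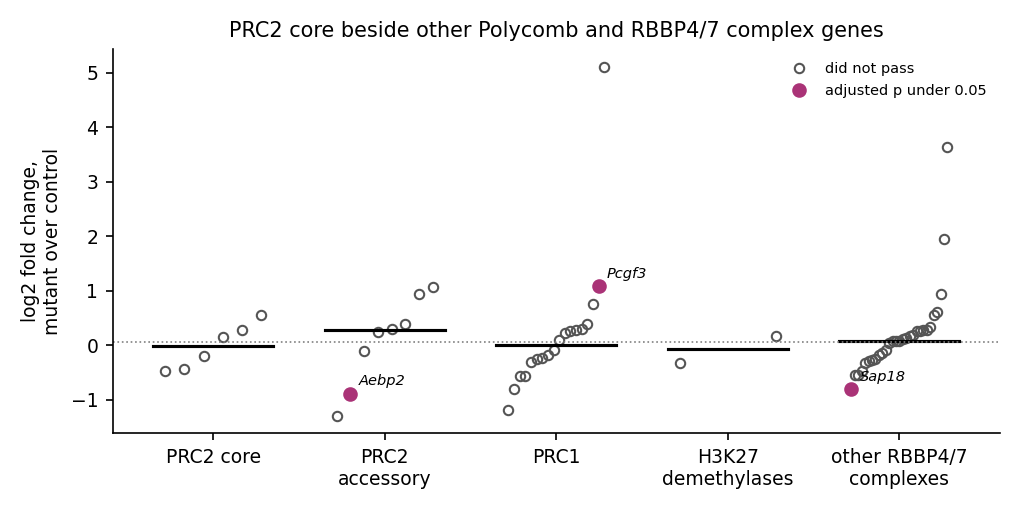
Log2 fold change (mutant over control) of the tested genes in the PRC2 core, its accessory subunits, Polycomb repressive complex 1, the H3K27 demethylases and other complexes with RBBP4 or RBBP7. Filled points passed the test, black lines are list medians and the dotted line is the median of all tested genes, 0.05. *Aebp2*, *Pcgf3* and *Sap18* passed, and none of the 6 core genes did.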

How the data were processed

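Oocyte RNA was amplified with Smart-Seq2, per the labels. Raw counts, as whole numbers per gene, were deposited by the authors in 1 matrix, and each library also has a table with the columns of RSEM gene results. Per the file headers these tables hold expected counts, TPM, FPKM and lengths in bases, each deposited by the authors. Cutadapt 1.16, STAR, RSEM and the build mm10 are named in the submitters' processing notes, without roles or settings. The sources used here do not name the counter behind the matrix. Groups and replicate numbers came from the sample titles.

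The count test was that of edgeR 4.0.16 under R 4.3.3 (filterByExpr, TMM scaling, quasi-likelihood test, genotype as the only term, 2 residual degrees of freedom, Benjamini-Hochberg adjustment over 15493 genes). The script was tested on simulated data. CPM used TMM-scaled sizes of the tested genes. The SE is the log2 fold change divided by the square root of F, and the 95% intervals are not adjusted. Ratios and lengths were compared by two-sided exact permutation tests in SciPy 1.17.1. Alternatives were DESeq2 1.42.0, limma 3.58.1 (log2 CPM, prior count 2), other scalings and filters, a replicate block, libraries left out, RSEM counts rounded to whole numbers, and mitochondrial and ribosomal protein genes left out. Ratios were also taken on FPKM deposited by the authors.

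Of 55335 gene IDs 55154 matched GENCODE M21 without their version, and the ID version of *Eed* differed. Sequences and coordinates come from M21. Similar genes were sought with BLAST 2.17.0 (at least 85% identity over 150 bases). The named genes were the 6 members, those past the threshold in each list, up to 4, or the 2 most abundant where none passed, and the 3 genes most like each member. The members and lists were chosen with earlier results of these data known. Amplified reads are not independent molecules.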

Additional observations from a re-analysis of the deposited data

How the results depend on the processing

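Over all genes 581 passed. The count was 1993 with DESeq2, 1322 with no filter on low counts and 1213 with the replicate block, and it lay between 22 and 1688 with 1 library left out (22 without control 1, 27 without control 2, 1688 without mutant 1, 1025 without mutant 2). Under the other 7 alternatives it was within 1.5 times the main count. The cause was not tested. None of the 6 core genes passed under any of the 14 alternatives. Their adjusted p ranged from 0.148 to 0.622 for *Ezh2*, 0.540 to 0.998 for *Ezh1*, 0.0505 to 0.452 for *Eed*, 0.178 to 0.930 for *Suz12*, 0.128 to 0.627 for *Rbbp4* and 0.258 to 0.996 for *Rbbp7*. Directions held, with the exception of *Ezh1*, whose log2 fold change with a library left out ran from -0.0014 (without control 1) to 0.26, and of the *Ezh2* mean length, whose difference ran from -12.2 to 8.17 bases (8.17 without mutant 1). The ratios of *Ezh1* to *Ezh2*, *Rbbp4* to *Rbbp7* and *Eed* to *Suz12* held their direction under all 7 alternatives each.

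The replicate numbers in the titles are not said to mark shared animals or days, and same-numbered libraries deviated together with a correlation of 0.176 across genes. With the replicate block, which leaves 1 residual degree of freedom, no core gene passed (*Ezh2* -0.46, adjusted p = 0.292) and the calls of *Aebp2*, *Pcgf3* and *Sap18* held.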
